A study of Mus musculus with 12 samples.

Results

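The genes examined here were the 10 mouse genes H2-K1, H2-D1, B2m, Tap1, Tap2, Tapbp, Psmb8, Psmb9, Psmb10 and Nlrc5, which build MHC class I, load it with peptide, or regulate it. They were taken by symbol from an expression matrix in which 54104 entries carried an Ensembl gene identifier, and each symbol matched 1 identifier. The matrix held bulk RNA sequencing of 12 mouse libraries, with 3 libraries for each pairing of a Ly6 name (Ly6C or Ly6G) with a tissue (spleen or tumor). According to the series, they come from monocytic and polymorphonuclear myeloid-derived suppressor cells (M-MDSCs and PMN-MDSCs), immature myeloid cells that accumulate in tumor-bearing animals and dampen T cell responses. Its title speaks of inhibiting MAPK signaling, but no sample carried a label of treatment. Strain, genotype, age, tumor model, sorting gate and any pooling of animals were not given by the labels, so no group can be described beyond its Ly6 name and tissue. Nothing tied the numbers 1 to 3 to separate animals, so p-values measure the spread between these libraries, which may be technical. Levels are FPKM, fragments scaled by the length of the gene and by the number of mapped fragments.

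MHC class I molecules display peptides from inside a cell to CD8 T cells. A heavy chain, encoded here by H2-K1 or H2-D1, pairs with the small subunit beta-2-microglobulin, the product of B2m. Peptides are cut by the proteasome, pumped into the endoplasmic reticulum by the transporter of Tap1 and Tap2, and loaded with the help of tapasin, the product of Tapbp. Interferon-gamma induces Psmb8, Psmb9 and Psmb10, whose products replace the catalytic subunits encoded by Psmb5, Psmb6 and Psmb7 to form the immunoproteasome. Nlrc5 is a transactivator that raises class I genes through a conserved promoter module with X and Y boxes, bound by RFX, CREB family and NF-Y factors. Myeloid cells and most other nucleated cells carry class I.

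The promoters of the classical chain genes are shown because the module and the inducible elements named above can be read in them. RefSeq start-site windows of build GRCm38.p6 held 8 of the 10 genes, with none for Tap2 and Nlrc5. Only the 250 bases before each start were searched, on both strands. The first run is from H2-K1 (chr17:34000348-34000597, minus strand), directly before the annotated gene, and the second from B2m (chr2:122147437-122147686, plus strand), whose last base is the first of the annotated gene. Capitals mark, from 5′ to 3′, a first kappaB form of 10 fixed letters, the interferon-response core GAANNGAAA read on the other strand, and the X2 half-site TGACG and Y box ATTGG in H2-K1. In B2m they mark the interferon-response repeat, a second kappaB form read on the other strand, and the same TGACG and ATTGG.
H2-K1 upstream: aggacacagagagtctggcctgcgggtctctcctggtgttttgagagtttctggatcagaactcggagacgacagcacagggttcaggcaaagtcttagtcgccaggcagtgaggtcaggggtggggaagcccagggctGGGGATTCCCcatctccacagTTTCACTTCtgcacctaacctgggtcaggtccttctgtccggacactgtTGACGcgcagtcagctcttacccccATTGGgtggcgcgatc
B2m upstream: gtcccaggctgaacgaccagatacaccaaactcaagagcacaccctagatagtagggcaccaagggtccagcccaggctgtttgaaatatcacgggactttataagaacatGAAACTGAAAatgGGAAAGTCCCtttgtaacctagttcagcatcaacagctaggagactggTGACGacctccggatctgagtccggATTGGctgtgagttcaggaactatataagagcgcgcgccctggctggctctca

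The same 2 elements stood at the same distance in 3 of the 8 genes with a window, each time as TGACG, 20 bases, then ATTGG. The runs below align these 30 bases for H2-K1 (chr17:34000359-34000388, minus strand), H2-D1 (chr17:35262993-35263022, plus strand) and B2m (chr2:122147609-122147638, plus strand), and the H2-D1 run lies under an annotated exon of the gene.
H2-K1 module: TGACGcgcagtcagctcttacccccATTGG
H2-D1 module: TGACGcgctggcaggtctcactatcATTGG
B2m module: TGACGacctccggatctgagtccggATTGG
H2-K1 and H2-D1 were identical at 23 of 30 positions, H2-K1 and B2m at 13, and H2-D1 and B2m at 12, counting the capital letters that the search fixed. This spacing was chosen from the members themselves and occurred in 30 of 32851 windows (0.0913%), while TGACG alone occurred in 17.8% and ATTGG alone in 33.8% of them. The first kappaB form, found in H2-K1 and H2-D1, occurred in 0.0852% of windows, and the second, found in B2m, in 1.41%. Matches of GAANNGAAA occurred in 6.31% and of the interferon-response repeat, which ends in the same letters, in 2.98% of windows. H2-K1 (chr17:34000429-34000458, minus strand) and H2-D1 (chr17:35262923-35262952, plus strand) shared the stretch that joins the kappaB form to the interferon-response core.
H2-K1 stretch: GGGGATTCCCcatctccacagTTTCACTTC
H2-D1 stretch: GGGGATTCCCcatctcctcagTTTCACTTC
Tap1 and Psmb9 held TGACG and ATTGG without that spacing, Tapbp held ATTGG alone, and Psmb8 and Psmb10 held none of the 7 patterns. A match describes letters and not a bound site.

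FPKM summed to 331681 at the lowest and 449309 at the highest, with 10379 to 12337 genes at 1 FPKM or more. Fragment counts were not used here, so no counting error is given. Mitochondrially encoded transcripts took 1.68% to 2.87% of FPKM in spleen and 3.07% to 11.9% in tumor libraries. The labels were checked against the marker genes. Ly6g was 651 ± 63.6 FPKM in Ly6G spleen and 166 ± 40.0 in Ly6C spleen (SD, n = 3), but Ly6c2 overlapped between them, at 214 ± 38.6 and 247 ± 24.8. In tumor libraries Ly6g was 39.1 ± 13 FPKM in Ly6G and 13 ± 1.03 in Ly6C, and Ly6c2 was at most 8.16 FPKM. All 20 pan-leukocyte genes fell from spleen to tumor in both labels, their summed level being 4485 to 5591 FPKM in spleen, 193 to 394 in Ly6C tumor and 490 to 863 in Ly6G tumor. Krt8, a keratin of epithelial and many carcinoma cells, was 356 to 770 FPKM in tumor and at most 0.263 in spleen libraries, while Epcam was listed at 0 in 5 of the 6 tumor libraries. The tumor libraries thus held little RNA of the leukocyte genes that their names imply, and every tissue comparison that follows carries this difference. In bulk samples, fewer cells of a type and less RNA per cell cannot be told apart.

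All 10 genes exceeded 1 FPKM in every library, and together they took 0.476% to 0.895% of a library's FPKM. On this length-corrected scale B2m and H2-D1 were the most abundant, ranking between 27 and 49 among all genes by group mean, and H2-K1 ranked between 95 and 149. Tap2, Tapbp, Psmb8, Psmb9, Psmb10 and Tap1 followed at group means of 14 to 42.5 FPKM, and Nlrc5 was lowest at 3.11 to 10.2 FPKM. The levels of all 10 genes in each library are plotted by group below.

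**Figure D1:**
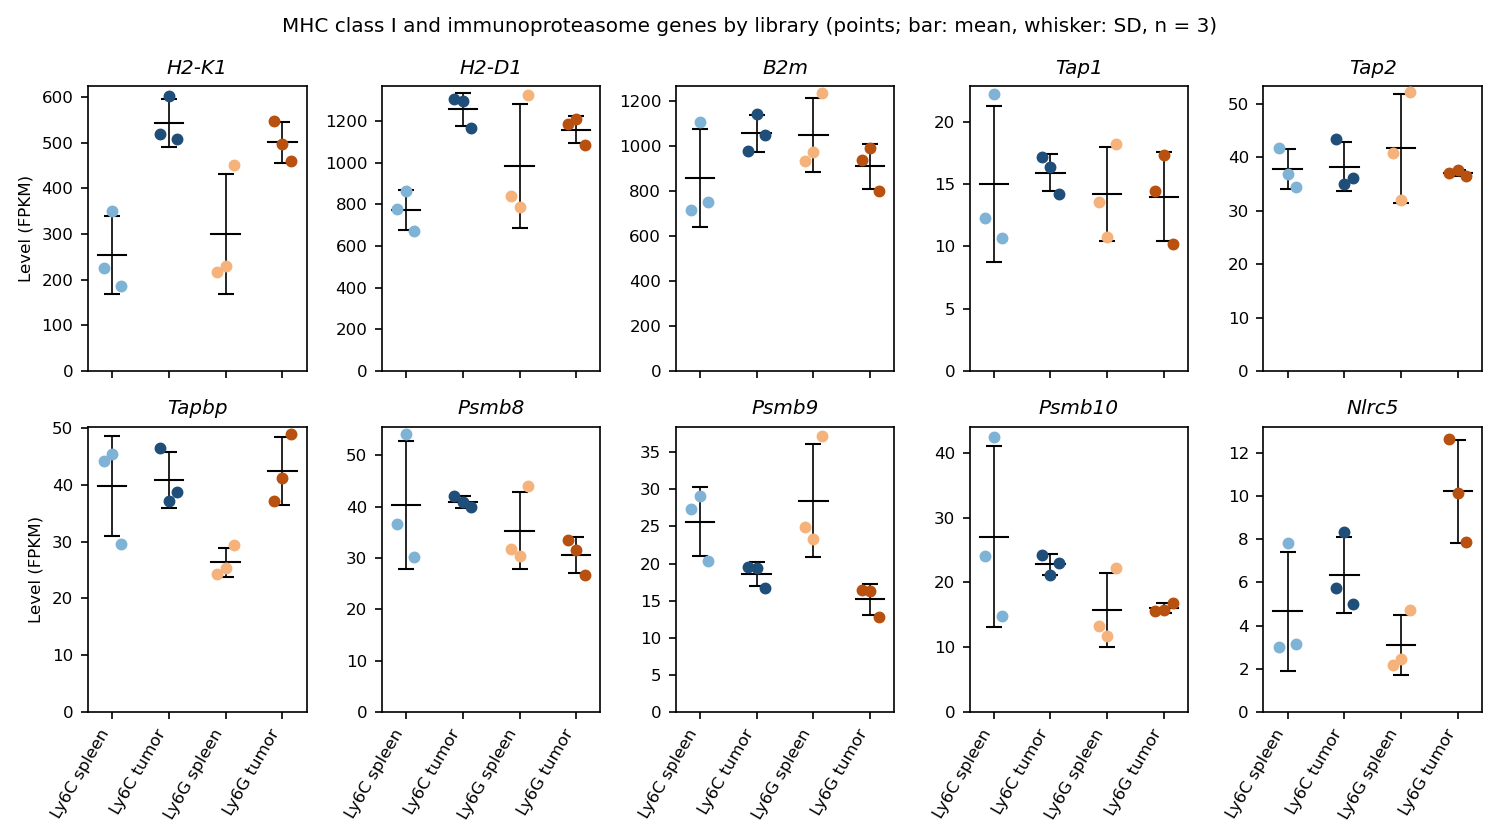
FPKM of the 10 genes in each of the 12 libraries, 1 panel per gene with its own axis from 0; points are libraries, bars group means and whiskers SD (n = 3). H2-K1 was higher in all 6 tumor than in all 6 spleen libraries, and Psmb9 was lower. For some genes, such as Psmb10, a single spleen library stood well above the rest of its group. Tapbp and Psmb9 in Ly6C spleen had a single low library instead.

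Between spleen and tumor the heavy chain H2-K1 rose in both labels on the deposited scale, but did not pass with quantile normalization in Ly6C (0.50) or with median-of-ratios factors in Ly6G (0.27). In Ly6G the regulator Nlrc5 rose under all 5 scalings tried, and the immunoproteasome subunit Psmb9 fell except when scaled to the pan-leukocyte genes. In Ly6C, H2-K1 and H2-D1 rose on the deposited scale and no gene of the 10 fell at an adjusted p under 0.05 (limma, Benjamini-Hochberg over 13610 genes), against a background of 46.2% of genes tested that rose and 30.5% that fell. H2-D1 did not pass with median-of-ratios factors, and with quantile normalization 0 of the 10 genes rose and 2 fell in Ly6C. With quantile normalization, 5220 of the 13610 genes tested rose and 5214 fell in Ly6C. In Ly6G, H2-K1, Tapbp and Nlrc5 rose and Psmb9 fell, against 51.5% and 24.7% of all genes. So 2 of 10 and 4 of 10 genes passed in either direction where 76.7% and 76.2% of genes did. The median change of the 10 genes was 0.10 in Ly6C and 0.03 in Ly6G on the log2(FPKM + 1) scale, beside 0.27 and 0.43 over all genes. Changes on this scale understate those of low genes such as Nlrc5. H2-K1 (higher) and Psmb9 (lower) separated all 6 tumor from all 6 spleen libraries, as did 38% of genes upward and 19.9% downward. Within Ly6C, 2 genes were higher and 1 lower in tumor without overlap (47% and 31.5% of all genes), and within Ly6G 3 and 1 (53.2% and 26%).

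**Figure D2:**
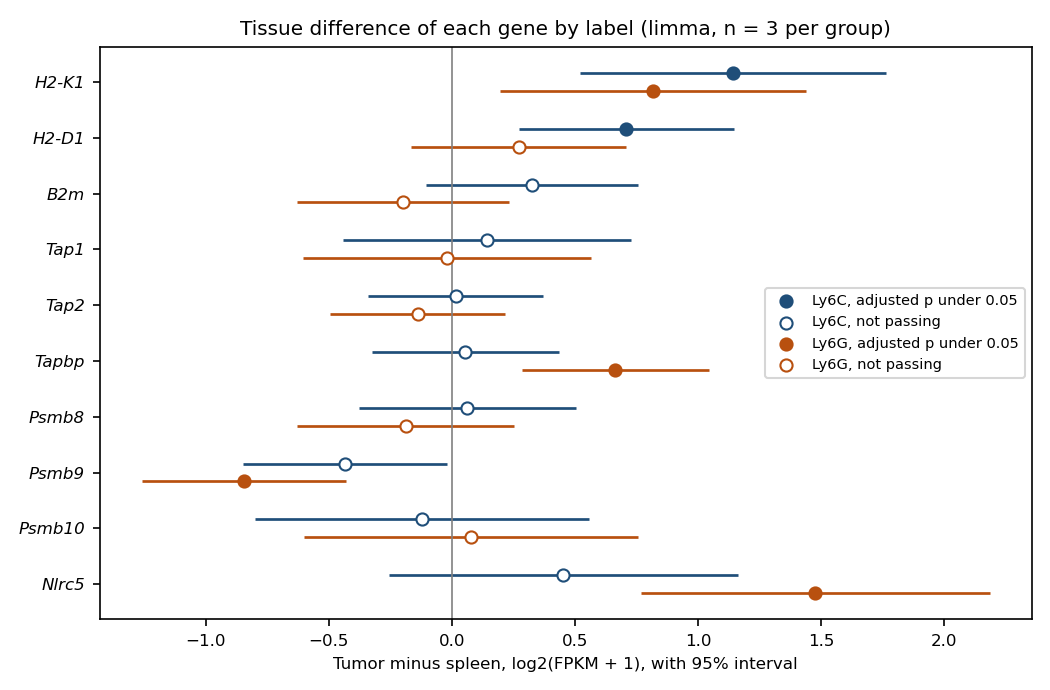
Tumor minus spleen difference of each gene on the log2(FPKM + 1) scale for Ly6C (blue) and Ly6G (orange), with 95% intervals from the limma model; filled points had an adjusted p under 0.05. Filled points were H2-K1 in both labels, H2-D1 in Ly6C, and Tapbp, Psmb9 and Nlrc5 in Ly6G.

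H2-K1 encodes the classical heavy chain K. Its level in Ly6C was 224, 350 and 186 FPKM in spleen replicates 1 to 3 and 520, 602 and 507 in tumor. In Ly6G it was 218, 230 and 452 FPKM in spleen and 547, 496 and 459 in tumor. The order of the group means was Ly6C tumor (543 ± 51.7), Ly6G tumor (501 ± 44.4), Ly6G spleen (300 ± 132) and Ly6C spleen (254 ± 85.6 FPKM, SD, n = 3). Libraries of the same tissue overlapped, and Ly6G spleen replicate 3 came within a few FPKM of the lowest tumor library. The rise was 1.14 ± 0.28 (SE) in Ly6C (limma adjusted p = 0.00296) and 0.82 ± 0.28 in Ly6G (limma adjusted p = 0.0199). In Ly6G the call was lost without spleen replicate 1 (0.63, limma adjusted p = 0.0857), spleen replicate 2 (0.67, 0.0773) or tumor replicate 1 (0.75, 0.0607).

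H2-D1 encodes the classical heavy chain D. Its level in Ly6C was 779, 863 and 673 FPKM in spleen and 1308, 1296 and 1166 in tumor. All 3 tumor libraries exceeded all 3 spleen libraries, with a change of 0.71 ± 0.20 (limma adjusted p = 0.0065). In Ly6G it was 840, 790 and 1327 FPKM in spleen and 1184, 1208 and 1085 in tumor. Spleen replicate 3 was the highest of these 6 libraries, so the groups overlapped and the change was 0.27 ± 0.20 (limma adjusted p = 0.231). Without that library it was 0.51 (limma adjusted p = 0.0138). H2-K1 and H2-D1 are close relatives. Of the 50-base stretches of their longest coding transcripts, 8.79% and 14.3% also occurred in transcripts of other genes, so their values are uncertain to the extent that the counting divided shared reads. The classical genes vary between mouse strains, and the strain was not given.

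B2m, the common light subunit, did not follow the heavy chains. Its level in Ly6C was 714, 1108 and 752 FPKM in spleen and 978, 1144 and 1050 in tumor. In Ly6G it was 932, 974.9 and 1237 FPKM in spleen and 937, 993 and 800 in tumor. The groups overlapped in both labels, with changes of 0.33 ± 0.20 in Ly6C (limma adjusted p = 0.148) and -0.20 ± 0.20 in Ly6G (0.372). Leaving out Ly6C spleen replicate 2, its highest library, gave 0.53 in Ly6C (limma adjusted p = 0.0145).

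Tap1 and Tap2 encode the paired subunits of the peptide transporter. Tap1 in Ly6C was 12.2, 22.2 and 10.7 FPKM in spleen and 17.2, 16.4 and 14.3 in tumor. In Ly6G, Tap1 was 13.6, 10.8 and 18.3 FPKM in spleen and 14.5, 17.4 and 10.2 in tumor. Tap2 lay between 32.1 and 52.4 FPKM over all 12 libraries. Tumor and spleen overlapped for both genes in both labels, and the 4 changes lay between -0.14 and 0.14 (limma adjusted p 0.454 to 0.949). The intervals of these changes reached from -0.61 to 0.73 for Tap1 and from -0.49 to 0.37 for Tap2, so changes of that size were not resolved.

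Tapbp encodes tapasin, which bridges the transporter and empty class I. Its level in Ly6C was 44.2, 45.4 and 29.6 FPKM in spleen and 46.4, 37.2 and 38.8 in tumor. In Ly6G it was 24.4, 25.3 and 29.3 FPKM in spleen and 37.2, 41.2 and 48.9 in tumor. The Ly6G groups did not overlap and Tapbp rose by 0.66 ± 0.17 (limma adjusted p = 0.00407), whereas the Ly6C groups overlapped at 0.06 ± 0.17 (0.781). The difference of these tissue effects did not pass (-0.61 ± 0.24, limma adjusted p = 0.0965), except without Ly6C spleen replicate 3, the low library, where it was -0.80 (0.019). Tapbp overlaps the antisense gene Gm19412, and 21.0% of its 50-base stretches occurred in other transcripts on either strand. Whether the counting used strand is not given in the sources used here.

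Psmb9 encodes the immunoproteasome counterpart of the subunit of Psmb6. Its level in Ly6C was 27.4, 29.1 and 20.3 FPKM in spleen and 19.6, 19.4 and 16.7 in tumor. In Ly6G it was 25, 23.2 and 37.2 FPKM in spleen and 16.4, 16.4 and 12.7 in tumor. Every tumor library lay under every spleen library. Psmb9 fell by 0.84 ± 0.19 in Ly6G (limma adjusted p = 0.00154), and in Ly6C the change was -0.43 ± 0.19 (0.0548). The latter passed without Ly6C spleen replicate 3 (-0.58, limma adjusted p = 0.0182) and, with its size unchanged, without Ly6G spleen replicate 2 (0.0494) or 3 (0.0225), through the shared spread. It also passed as lower with an equal sum (-0.53, limma adjusted p = 0.036), median-of-ratios factors (-0.74, 0.00119), quantile normalization (-0.55, 0.00714) and a fit of the 2 Ly6C groups alone (0.0417). Psmb9 and Tap1 lie head to head on opposite strands with overlapping exons, and 12.5% of the 50-base stretches of Psmb9 also belonged to Tap1.

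Psmb8 and Psmb10 encode the counterparts of Psmb5 and Psmb7. Psmb8 in Ly6C was 36.7, 54.2 and 30.1 FPKM in spleen and 42.1, 40.8 and 39.9 in tumor, and in Ly6G 31.7, 30.3 and 43.9 against 33.5, 31.6 and 26.7. Psmb10 in Ly6C was 24.1, 42.4 and 14.8 FPKM in spleen and 24.2, 21.1 and 23 in tumor, and in Ly6G 13.2, 11.7 and 22.2 against 15.5, 15.7 and 16.9. The spleen libraries spread over a wider range than the tumor libraries and the groups overlapped. The 4 changes lay between -0.19 and 0.08 (limma adjusted p 0.411 to 0.826).

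Nlrc5, the class I transactivator, was the lowest of the 10 in level and had the largest change among them. In Ly6G it was 2.17, 2.45 and 4.72 FPKM in spleen and 12.7, 10.1 and 7.88 in tumor. These groups did not overlap and Nlrc5 rose by 1.48 ± 0.32 (limma adjusted p = 0.0013). In Ly6C it was 3.03, 7.85 and 3.13 FPKM in spleen and 5.75, 8.35 and 4.99 in tumor. Ly6C spleen replicate 2 lay within the tumor range, and the change was 0.45 ± 0.32 (limma adjusted p = 0.218), or 0.83 without that library (0.0181). The difference of the tissue effects was -1.02 ± 0.46 and did not pass (limma adjusted p = 0.132).

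These directions depended in part on how libraries were put on a common scale. Scaling to an equal sum put the all-gene median at 0.20 in Ly6C and 0.68 in Ly6G, median-of-ratios factors at 0.02 and 0.03, and scaling to the pan-leukocyte genes at 3.02 and 2.20. With quantile normalization it was slightly under 0 in both labels. H2-K1 was higher in tumor under all 5 scalings in both labels, although it did not pass with quantile normalization in Ly6C (0.50, limma adjusted p = 0.0962) or median-of-ratios factors in Ly6G (0.27, 0.317). H2-D1 in Ly6C was 0.38 with median-of-ratios factors (0.0545) and turned to -0.06 with quantile normalization (0.788), where B2m was -0.55 (0.0471). Nlrc5 passed as higher in Ly6G under every scaling, the lowest value being 1.03. With median-of-ratios factors in Ly6G, Tapbp was 0.14 (limma adjusted p = 0.461), and B2m (-0.74), Psmb8 (-0.72) and Tap2 (-0.67) passed as lower. Psmb9 was lower in Ly6C and Ly6G under 4 scalings and higher, by 3.02 and 1.63, when scaled to the pan-leukocyte genes. Under that scaling all 10 genes passed as higher in tumor, as did 12285 (Ly6C) and 12049 (Ly6G) of the 13610 genes tested.

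**Figure D3:**
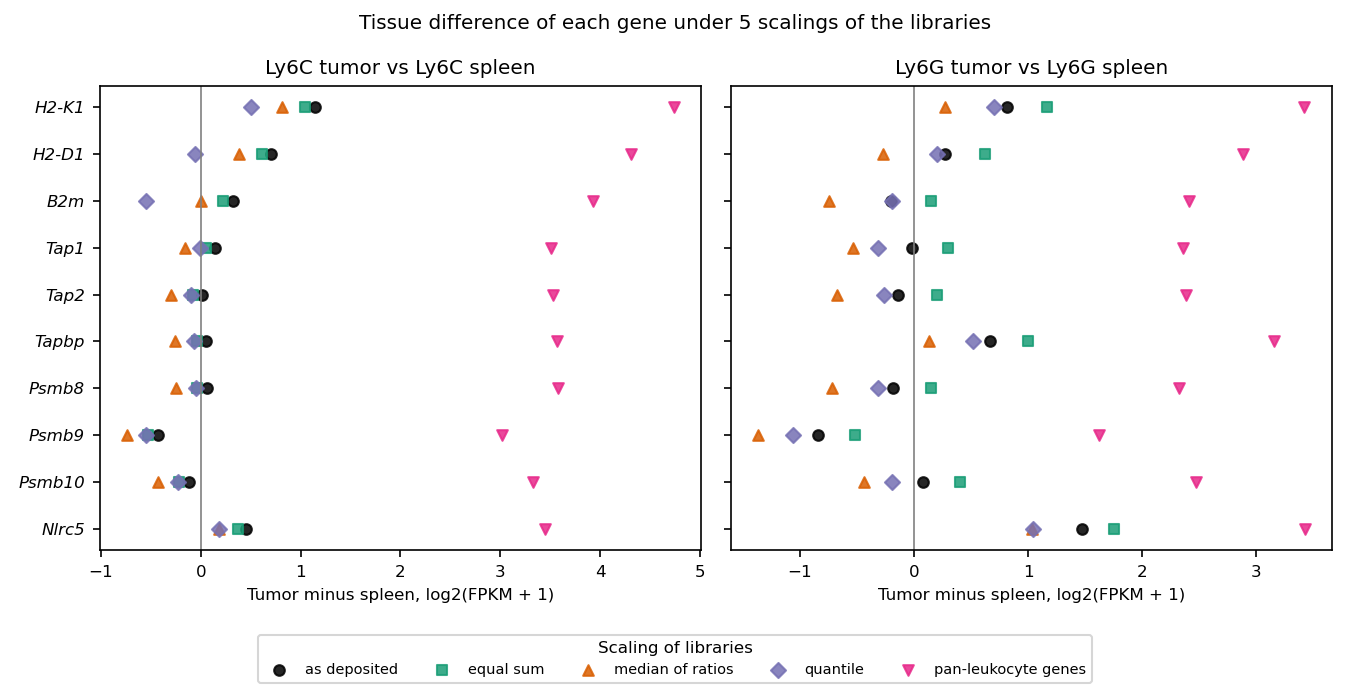
Tumor minus spleen difference of each gene on the log2(FPKM + 1) scale in Ly6C (left) and Ly6G (right) under 5 scalings of the libraries, 1 symbol per scaling. Scaling to the pan-leukocyte genes places all 10 genes at 1.63 or above, and the other scalings place them between -1.37 and 1.75.

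Ratios of genes within a library do not move with a common factor and were compared for 6 pairs, as log2(FPKM + 1) differences with an exact two-sided permutation test within labels (400 labelings, smallest possible p 0.005, adjusted over 12 tests). Psmb9 to Psmb6 was 0.590, 0.587 and 0.569 in Ly6C spleen, 0.281, 0.308 and 0.255 in Ly6C tumor, 0.633, 0.789 and 1.04 in Ly6G spleen, and 0.350, 0.368 and 0.273 in Ly6G tumor. Each tumor library was below each spleen library, and the log2 ratio was lower in tumor by -1.13 (exact permutation p = 0.005, adjusted 0.015). Its parts moved apart, since Psmb6 rose by 0.59 ± 0.14 in Ly6C and 0.40 ± 0.14 in Ly6G (limma adjusted p = 0.00235 and 0.0219), although Psmb6 was -0.13 in Ly6G with median-of-ratios factors. Psmb8 to Psmb5 averaged 0.439 and 0.416 in Ly6C and Ly6G spleen and 0.343 and 0.361 in tumor, a difference of -0.27 (exact permutation p = 0.005, adjusted 0.015). Psmb10 to Psmb7 averaged 1.24 and 0.833 in spleen and 0.584 and 0.597 in tumor, a difference of -0.70 (exact permutation p = 0.015, adjusted 0.036). The Ly6G libraries overlapped for that pair, and its adjusted p was 0.06 to 0.072 without Ly6C tumor replicate 1, 2 or 3 or Ly6G tumor replicate 1 or 2.

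The heavy chains gained on their light subunit. H2-K1 to B2m was 0.248 to 0.316 in Ly6C spleen, 0.233 to 0.365 in Ly6G spleen, 0.483 to 0.531 in Ly6C tumor and 0.50 to 0.584 in Ly6G tumor, with no overlap between tissues. The difference in log2 ratio was 0.92 for H2-K1 and 0.43 for H2-D1 over B2m (each exact permutation p = 0.005, adjusted 0.015). Tap1 to Tap2 differed by 0.12 between tissues (exact permutation p = 0.5, adjusted 0.648). None of the 6 ratios differed between the labels at an adjusted p under 0.05, and the nearest was Psmb9 to Psmb6 at -0.34 (exact permutation p = 0.025, adjusted 0.05). That ratio passed without Ly6G spleen replicate 1 (-0.43, exact permutation adjusted p = 0.03) or Ly6G tumor replicate 3 (-0.41, 0.02). Its Ly6C and Ly6G libraries did not overlap in spleen but did in tumor. Marker sums differed along with these ratios: the 10 B cell markers fell in both labels, from 259 to 399 FPKM (Ly6C) and 759 to 1314 FPKM (Ly6G) in spleen to at most 8.89 FPKM in tumor, 7 of them under 1 FPKM in each tumor group and Fcrla listed at 0 in Ly6G tumor. All 8 neutrophil markers fell in both labels, from 55312 to 88954 FPKM in Ly6C spleen and 111814 to 145043 in Ly6G spleen to 1378 to 2607 and 4262 to 8336 in tumor. Monocyte markers fell for 7 of 8 in Ly6C and 4 of 8 in Ly6G (1 rose), macrophage and dendritic cell markers for 4 and 5 of 7 tested, and T and NK cell markers for 7 of 7 in both. Of the 8 epithelial markers Krt8 and Krt18 rose and the other 6 stayed under the expression filter, and 5 of 8 fibroblast markers in Ly6C and 7 of 8 in Ly6G rose. Their part in the ratios was not tested.

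**Figure D4:**
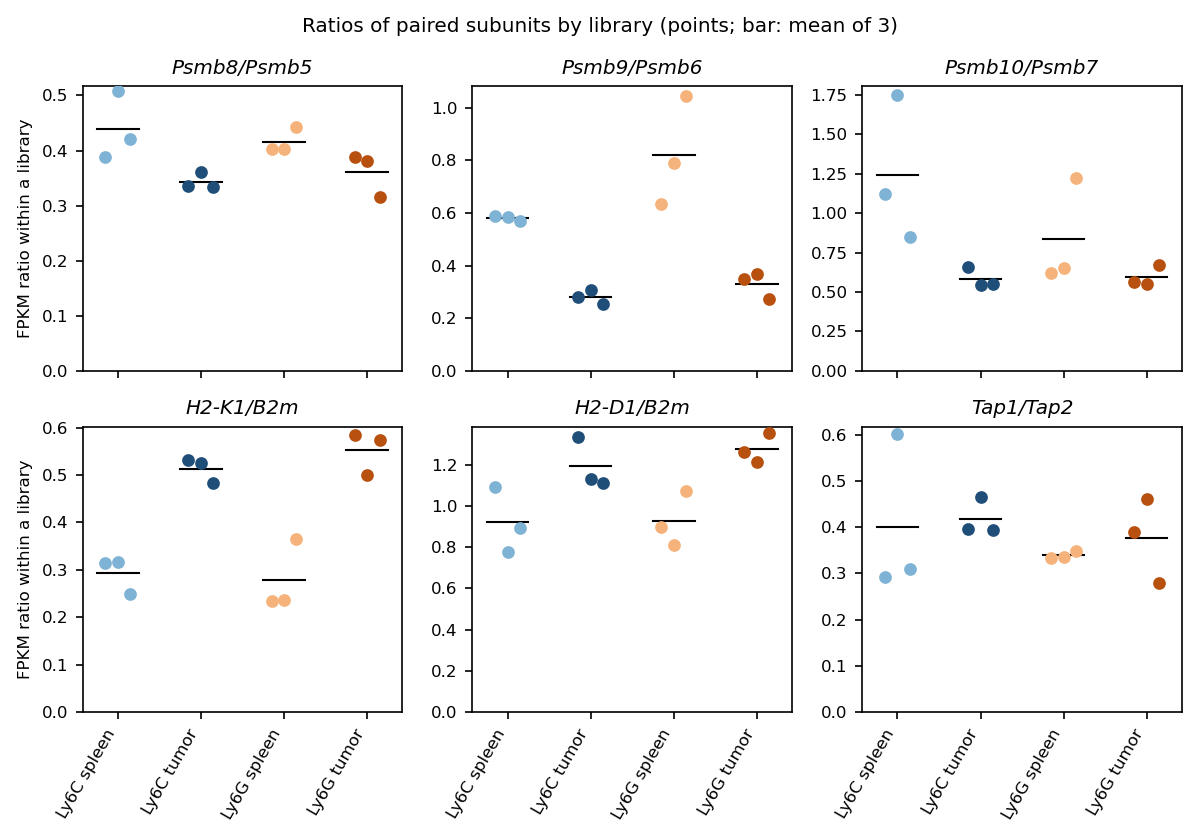
FPKM ratio of 6 gene pairs within each library by group, with axes from 0; points are libraries and bars are means of 3. The ratios of Psmb8 to Psmb5 and Psmb9 to Psmb6 were lower, and those of H2-K1 and H2-D1 to B2m higher, in every tumor than in every spleen library of the same label, while Psmb10 to Psmb7 overlapped in Ly6G.

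Between Ly6C and Ly6G libraries of the same tissue, 1 of the 10 genes passed in spleen and 0 in tumor. In spleen it was Tapbp, with 39.7 ± 8.77 FPKM in Ly6C and 26.3 ± 2.63 in Ly6G, a difference of 0.56 ± 0.17 (limma adjusted p = 0.0307), where 22.1% of genes were higher and 8.59% lower in Ly6C. It was also the 1 gene whose spleen libraries did not overlap, as 29% of genes were higher and 13% lower without overlap. That call was lost without Ly6C spleen replicate 1 (0.47, limma adjusted p = 0.103) or 2 (0.45, 0.102) and without Ly6G spleen replicate 1 (0.51, 0.0944) or 2 (0.53, 0.0794). Psmb10 was 27.1 ± 14 and 15.7 ± 5.72 FPKM, with a difference of 0.68 ± 0.31 (limma adjusted p = 0.122). It passed without Ly6C spleen replicate 3 (1.03, 0.0145) or Ly6G spleen replicate 3 (0.94, 0.0484). B2m was -0.31 ± 0.20 (limma adjusted p = 0.275) and passed without Ly6C spleen replicate 2 (-0.50, 0.0489). In spleen the monocyte markers summed to 339 to 647 FPKM in Ly6C and 254 to 284 in Ly6G, and all 10 B cell markers were lower in Ly6C. Their part in these values was not tested.

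In tumor, 0 of the 10 genes passed and 0 had an unadjusted p under 0.05 (limma), where 5.8% of genes were higher and 8.7% lower in Ly6C. The differences ran from -0.61 ± 0.32 for Nlrc5 to 0.48 ± 0.31 for Psmb10, and the lowest limma adjusted p was 0.181, for Psmb8. Psmb8, Psmb9 and Psmb10 were higher in all 3 Ly6C than in all 3 Ly6G tumor libraries, as were 24.1% of genes (18.2% were lower), at means of 40.9, 18.5 and 22.8 FPKM against 30.6, 15.2 and 16. The 20S core subunits shared by both kinds of proteasome were higher in Ly6C tumor for 9 of 11, and Psmb6 and Psmb7 passed at 0.51 ± 0.14 and 0.52 ± 0.13 (limma adjusted p = 0.0358 and 0.0253). With an equal sum 3 of the 11 and neither Psmb6 nor Psmb7 passed, and without the tumor libraries of highest mitochondrial share 0 of the 11 and neither of the pair passed. In those settings only 108 and 9 of the 13610 genes tested passed as higher. The median difference of the 11 was 0.39 and 0.47 there, beside 0.50 on the deposited scale with all libraries. Pan-leukocyte genes were lower in Ly6C tumor for 16 of 20. Scaled to those genes, 9 of the 10 genes passed as higher in Ly6C tumor, as did 9634 of the 13610 genes tested. A fit of the 2 tumor groups alone called Psmb8 (limma adjusted p = 0.0341) and Psmb10 (0.0186) higher, and without both high spleen libraries Psmb8 (0.0283) passed as higher and Nlrc5 (0.0477) as lower. Without both high spleen libraries, 1543 of the 13610 genes tested passed as higher and 1514 as lower in Ly6C tumor, beside 790 and 1184 with all libraries. Whether tumor and spleen differed by unequal amounts in Ly6C and Ly6G was tested as well, and 0 of the 10 genes passed, with an unadjusted p under 0.05 for Nlrc5 and Tapbp (limma). Of all genes 21.8% passed that test, 6.02% upward and 15.8% downward. Without Ly6C spleen replicate 2, B2m passed in that test (0.72, limma adjusted p = 0.0418).

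Single spleen libraries were the highest of their group in nearly all 10 genes at once. Ly6C spleen replicate 2 was the highest of its group for 9 of 10 genes and Ly6G spleen replicate 3 for 10 of 10. In Ly6C the margin over replicate 1 was small for Tapbp (45.4 against 44.2 FPKM) and Psmb9 (29.1 against 27.4). The share of all genes highest in these libraries was not counted. Their median-of-ratios factors, which follow the typical gene, were also the largest of their groups. They were 1.05 against 0.916 and 0.873 in Ly6C and 0.817 against 0.781 and 0.755 in Ly6G. In Ly6C replicate 2 the monocyte markers summed to 647 FPKM against 339 and 408, and the macrophage and dendritic cell markers to 317 against 166 and 224. In Ly6G replicate 3 the B cell markers summed to 1314 FPKM against 759 and 878, and the macrophage and dendritic cell markers to 761 against 370 and 470. By summed level, though not by geometric mean in Ly6G, the neutrophil markers were lowest in both libraries, at 55312 FPKM against 68761 and 88954 in Ly6C and 111814 against 142653 and 145043 in Ly6G. The T and NK cell markers were highest in both, at 23.7 FPKM against 15.5 and 19.9 in Ly6C and 61.8 against 32.7 and 42.2 in Ly6G, and B cell markers were also highest in Ly6C replicate 2 (399 against 259 and 345). Their part in the high values was not tested. Both libraries were picked for high values of these same genes, so leaving them out raises most tumor minus spleen changes by construction. Without both libraries, 4 genes rose and none fell in Ly6C (B2m, H2-D1, H2-K1 and Nlrc5). In Ly6G, H2-K1, Tapbp, Nlrc5 and Psmb9 passed as they had with all libraries, and H2-D1 also passed (0.51, limma adjusted p = 0.00425). Of the 13610 genes tested, 6532 rose and 4005 fell in Ly6C in this setting. The ratio of Psmb8 to Psmb5 was then -0.20 (exact permutation test, adjusted p = 0.06) and that of Psmb10 to Psmb7 -0.41 (adjusted p = 0.096). Across the 45 gene pairs, Pearson's r of the deviations from the group means had a median of 0.76 (range 0.18 to 0.94 over 12 libraries), as a description of libraries that share scale and cell mixture.

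The lists of other pathway genes hold 108 genes in 10 groups, and their plot sets the 10 genes beside them. Their counts stand beside the 46.2% of all genes that rose and 30.5% that fell in Ly6C, and the 51.5% and 24.7% in Ly6G. Scaled to the pan-leukocyte genes, 12285 of the 13610 genes tested rose and 546 fell in Ly6C, and 12049 rose and 575 fell in Ly6G. Of 13 other class I and class I-like chains with enough signal, 5 rose and 4 fell in Ly6C and 1 rose and 6 fell in Ly6G, with medians of 0.41 and -0.25 beside the all-gene medians of 0.27 and 0.43. On the deposited scale H2-Q4 went up in both labels, as did H2-K1, whereas H2-D1 passed in Ly6C alone. H2-Q4 went from 30.0 ± 6.48 to 91.4 ± 14.2 FPKM in Ly6C and from 34.5 ± 13.8 to 101 ± 18.6 in Ly6G (1.58 ± 0.25 and 1.57 ± 0.25, limma adjusted p = 0.000119 and 0.000135). H2-T23, which encodes the chain Qa-1 seen by natural killer cell receptors, fell from 60 ± 7.92 to 20.7 ± 2.45 FPKM in Ly6C and from 90.1 ± 23.4 to 28.5 ± 5.09 in Ly6G. H2-T24 fell by 2.24 ± 0.13 in Ly6C and by 1.69 ± 0.13 in Ly6G (limma adjusted p = 2.36e-08 and 2.74e-07). Fcgrt, the heavy chain of the neonatal Fc receptor, rose by 1.69 ± 0.35 in Ly6C (0.000858). Shared stretches were measured only for the 10 genes, and only the genes sharing most with each were listed. For H2-K1 or H2-D1 these included H2-Q1, H2-Q6, H2-Q7 and H2-T23. In all, stretches of H2-K1 occurred in 25 other genes and those of H2-D1 in 168. Whether H2-Q4 or H2-T24 was among them is not given here. A division of reads among such relatives is possible, and it was not examined for Fcgrt and the more distant chains. Scaled to the pan-leukocyte genes, none of the 13 passed as lower in either label.

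Loading chaperones of the endoplasmic reticulum rose for 7 of 8 in Ly6C and 6 of 8 in Ly6G, where 46.2% and 51.5% of all genes rose, with medians of 0.94 and 1.09 beside 0.27 and 0.43, and 6 or 7 rose under every scaling but the pan-leukocyte one, where 8 did. Calr, the chaperone calreticulin, was 62.5, 96.9 and 70.0 FPKM in Ly6C spleen and 153, 151 and 183 in tumor, and 52.3, 56.7 and 53.5 against 123, 123 and 129 in Ly6G. No library of calreticulin overlapped between tissues. Canx (calnexin) rose by 1.23 ± 0.15 in Ly6C and Hspa5 (BiP) by 1.58 ± 0.13 in Ly6G (limma adjusted p = 1.05e-05 and 4.41e-07). Of 7 trimming peptidases, 4 rose and 1 fell in Ly6C and 3 rose and none fell in Ly6G, or 3 and 3 with median-of-ratios factors. With those factors 5259 of the 13610 genes tested rose and 5030 fell in Ly6G. Thop1, a cytosolic oligopeptidase, rose by 3.07 ± 0.18 and 2.86 ± 0.18 (limma adjusted p = 2.62e-08 and 5.26e-08). Erap1, which trims peptides in the endoplasmic reticulum, rose by 0.52 ± 0.20 in Ly6C (0.0288) and was 0.21 ± 0.20 in Ly6G (0.348).

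Of the constitutive catalytic subunits, Psmb5, Psmb6 and Psmb7 passed as higher in Ly6C and Psmb6 and Psmb7 in Ly6G, but with median-of-ratios factors in Ly6G all 3 turned negative (-0.53, -0.13 and -0.04). Of 11 other 20S core subunits, 8 rose and 1 fell in Ly6C and 7 rose and 2 fell in Ly6G, and of 17 subunits of the 19S regulator, which feeds the core, 12 rose and 1 fell and 11 rose and 1 fell. With median-of-ratios factors the Ly6G counts became 4 and 4 of the core and 5 and 4 of the regulator. Of the 13610 genes tested, 5259 rose and 5030 fell in Ly6G with those factors. Psma3 had the largest rise of the core (2.20 ± 0.14 in Ly6C and 1.58 ± 0.14 in Ly6G) and Psma1 fell (-0.36 ± 0.12 and -0.86 ± 0.12), although all 11 core subunits were higher when scaled to the pan-leukocyte genes. The interferon-inducible activator subunits Psme1 and Psme2 went the way of Psmb9 in Ly6G. Psme1 was 36.1, 33.8 and 49.9 FPKM in Ly6G spleen and 21.6, 21.2 and 15.8 in tumor (-0.99 ± 0.19, limma adjusted p = 0.000551), and Psme2 fell by 0.95 ± 0.18 (0.000448). In Ly6C, Psme1 was 28.8, 34.4 and 21.4 FPKM in spleen and 28.5, 27.2 and 28 in tumor (0.01 ± 0.19, 0.965). Scaled to the pan-leukocyte genes, Psme1 and Psme2 were higher in Ly6G tumor, at 1.52 each.

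The interferon-gamma receptor and its signaling genes moved mostly down. Of 11 tested, 8 fell and 2 rose in Ly6C and 7 fell and 1 rose in Ly6G, with medians of -0.53 and -0.78, although scaled to the pan-leukocyte genes 11 and 10 rose. Ifngr1, the ligand-binding receptor chain, was 21.7, 41.9 and 28.2 FPKM in Ly6C spleen and 6.30, 6.18 and 7.78 in tumor, and fell by 1.98 ± 0.21 (limma adjusted p = 3.69e-06), and by 1.33 ± 0.21 in Ly6G (0.00011). Irf1, a factor that binds interferon-response elements of class I genes, was 12.4, 10.3 and 8.67 FPKM in Ly6C spleen and 31.9, 70.8 and 43.6 in tumor, a rise of 2.06 ± 0.35 (0.000199). In Ly6G, Irf1 was 29.1, 26.2 and 33.4 FPKM in spleen and 74.8, 39.7 and 25.2 in tumor, and its tumor libraries spread across the spleen range (0.51 ± 0.35, limma adjusted p = 0.206).

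Interferon-gamma targets went both ways: of 12 tested, 3 rose and 3 fell in Ly6C and 4 rose and 3 fell in Ly6G. Cxcl10, a chemokine, rose by 2.58 ± 0.19 and 3.46 ± 0.19 (limma adjusted p = 1.58e-07 and 1.67e-08). Ciita, the class II counterpart of Nlrc5, fell from 3.58 ± 1.5 to 0.178 ± 0.0322 FPKM in Ly6C and from 4.42 ± 1.91 to 0.154 ± 0.0692 in Ly6G. B cells also express Ciita, and the part of the falling B cell markers in its change was not tested. With median-of-ratios factors 3 targets rose and 6 fell in each label, and without both high spleen libraries 5 rose and 3 fell in Ly6C. Of the 13610 genes tested, 5342 rose and 5122 fell in Ly6C with those factors, and 5259 and 5030 in Ly6G. Without both high spleen libraries 6532 rose and 4005 fell in Ly6C. Among 8 factors of the class I promoter, 1 rose and 3 fell in Ly6C and 2 rose and 3 fell in Ly6G, but with an equal sum 4 rose and none fell in Ly6G. With median-of-ratios factors 0 rose and 6 fell in Ly6C and 1 rose and 6 fell in Ly6G, and with quantile normalization 0 and 5 and 1 and 5. Over all genes tested, 8152 rose and 2557 fell in Ly6G with an equal sum. Quantile normalization gave 5220 and 5214 in Ly6C and 5069 and 5120 in Ly6G. Rfx5, the DNA-binding RFX subunit, was 1.03, 1.5 and 3.40 FPKM in Ly6G spleen and 3.85, 3.04 and 2.96 in tumor (0.60 ± 0.24, limma adjusted p = 0.0388), and its groups overlapped. Rfxap, which binds it, rose by 1.0 ± 0.12 in Ly6G (limma adjusted p = 1.18e-05) and by 0.29 ± 0.12 in Ly6C (0.0426).

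**Figure D5:**
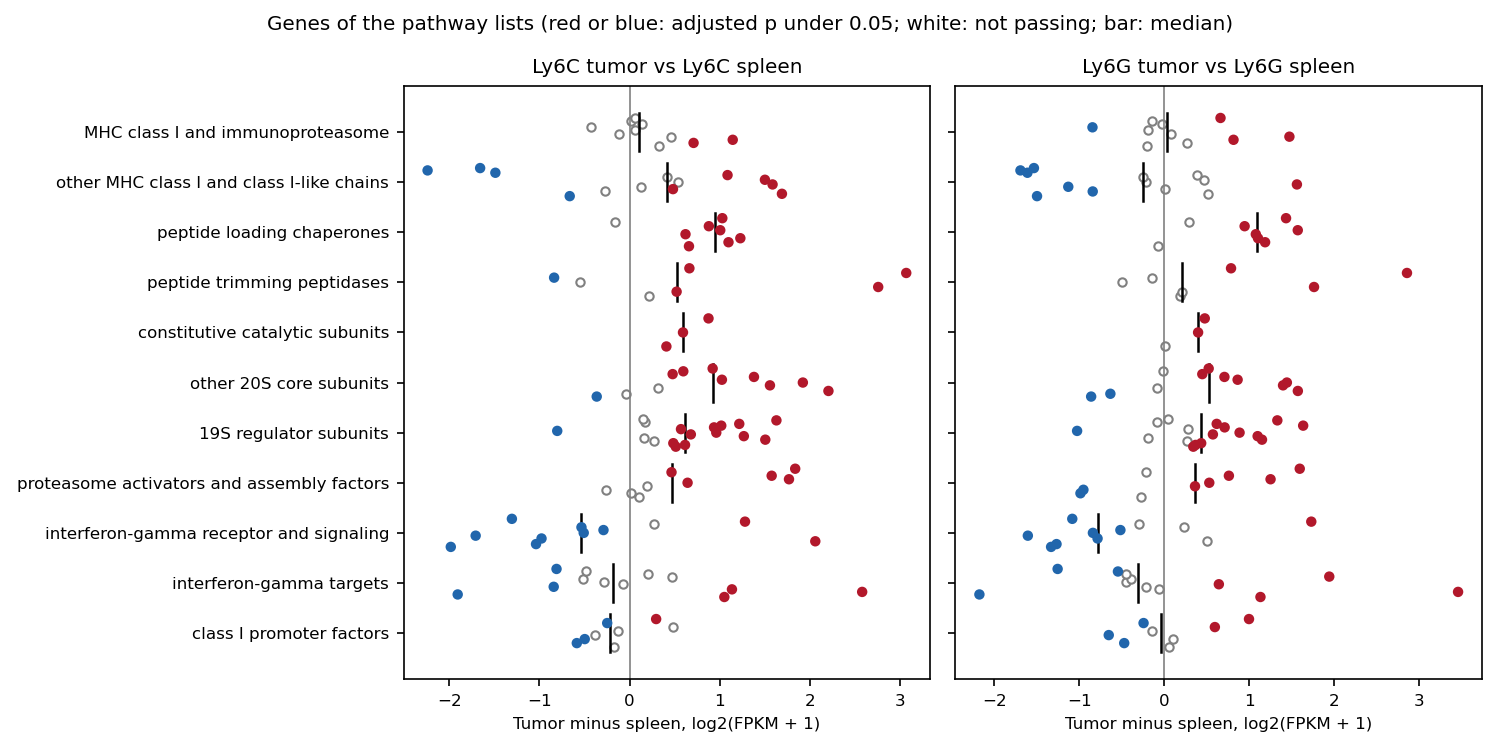
Tumor minus spleen difference of each tested gene on the log2(FPKM + 1) scale by list, in Ly6C (left) and Ly6G (right); red and blue points had an adjusted p under 0.05, white points did not, and bars are medians. Loading chaperones lie mainly to the right of 0 and interferon-gamma receptor and signaling genes mainly to the left, with medians of 0.94 and -0.53 in Ly6C.

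The genes whose log2(FPKM + 1) pattern over the 12 libraries was most like that of a member are given as a description. For H2-K1 they were Thap3 (Pearson's r = 0.98), Aen (0.97) and Ubfd1 (0.97). For Nlrc5 they were Tmem245 (0.97), Zmynd8 (0.96) and Zfp839 (0.95). For Psmb8 they were Oxa1l (0.95), Pdhb (0.95) and Osgep (0.94), and for Tap1 Trpc4ap (0.90), Oxa1l (0.88) and Dnase2a (0.87). None of these nearest genes was another member.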

How the data were processed

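Total RNA of 12 mouse samples had been sequenced as paired-end libraries, per the labels' protocols. The authors deposited FPKM per gene and library; HISAT2 2.0.5, featureCounts 1.5.0-p3 and GRCm38 are named in the submitters' processing notes, and neither annotation nor strand setting is named there. Of 54674 entries, 570 assembled loci without a gene identifier (0.463% to 1.04% of FPKM) were left out. Symbols and coordinates came from GENCODE M21 (66 identifiers without a record). Low values repeated at a step, but only 35.9% to 40.5% of them lay within 0.05 of a whole step, so reads were not recovered. Genes that reached 1 FPKM in 3 or more libraries were tested on log2(FPKM + 1) with limma 3.58.1 (R 4.3.3): 4 group means, trended variance, 8 residual degrees of freedom, two-sided, Benjamini-Hochberg adjusted p under 0.05. Ratios were tested with exact permutations in Python 3.11.15. The fit was tested on simulated data.

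Members, lists, tests and alternatives were chosen with earlier results of these data known. Named were all 10 members, the passing gene of largest rise and fall per list and comparison, a fixed set (Psmb5, Psmb6, Psmb7, Psme1, Psme2, Irf1, Ifngr1, Rfx5, Erap1; 1 further gene is not reported here) and the 3 nearest genes; H2-T23, Calr and the marker genes were chosen after their values were seen. Alternatives were other pseudocounts, filters, scalings and fits, the replicate number as a block, and leaving out libraries. Leaving out the spleen libraries of highest member levels was added after seeing the data, and it favors rises of the members in tumor by construction.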

Additional observations from a re-analysis of the deposited data

Results flagged for a closer look

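For 9 of the named pathway genes outside the 10, the change from spleen to tumor differed between the labels by limma's test of that difference (Ly6C minus Ly6G, log2(FPKM + 1), Benjamini-Hochberg adjusted p over all genes tested). The difference was positive for Irf1 (1.55 ± 0.50, limma adjusted p = 0.0452), Psme1 (1.0 ± 0.27, 0.0232), Bcap31 (0.73 ± 0.17, 0.011) and Psma3 (0.63 ± 0.19, 0.0399). It was negative for Cxcl10 (-0.89 ± 0.27, limma adjusted p = 0.0353), Jak2 (-0.77 ± 0.21, 0.0253), Rfxap (-0.71 ± 0.17, 0.0137), Npepps (-0.69 ± 0.23, 0.0488) and Hspa5 (-0.57 ± 0.18, 0.0444). These genes had been named for their size in the tissue or label comparisons or from a fixed set, and those comparisons use the same libraries. Over the 10 pathway lists without such a choice, 15 of 99 genes tested passed. In the same test 21.8% of all genes passed, and 0 of the 10 MHC class I and immunoproteasome genes did. Irf1 also differed between the labels in spleen (-1.42 ± 0.35, limma adjusted p = 0.0103), while in tumor it was 0.13 ± 0.35 (0.846).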

How the results depend on the processing

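Directions turned under changes of scale. Scaled to the pan-leukocyte genes, the tissue change in Ly6C turned positive for Ifngr1 (1.39), Psmb10 (3.33), Psme2 (3.17) and Psmb9 (3.02). In Ly6G it turned positive for Ifngr1 (1.10), Psme1 (1.52), Psmb8 (2.32), Tap2 (2.39), Tap1 (2.36), B2m (2.41), Psme2 (1.52) and Psmb9 (1.63), and between labels in tumor for Tapbp (1.0). Quantile normalization turned B2m (-0.55) and H2-D1 (-0.063) in Ly6C, and median-of-ratios factors Psmb6 (-0.13), Psmb5 (-0.53) and Psmb7 (-0.044) in Ly6G. The cause was not tested.

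Counts of the 10 genes are given as higher or lower. Scaled to pan-leukocyte genes, most of the 13610 genes tested passed as higher too, with 12285 in Ly6C, 12049 in Ly6G and 9634 between labels in tumor. Higher in Ly6C tumor were 2, but 1 with median-of-ratios factors, 0 with quantile normalization, 10 scaled to pan-leukocyte genes and 4 without both high spleen libraries. Lower in Ly6C were 0, but 1 with an equal sum, median-of-ratios factors or 2 groups in the fit and 2 with quantile normalization. Over all genes tested in Ly6C, 6289 were higher and 4154 lower on the deposited scale. They were 5876 and 4399 with an equal sum, 5342 and 5122 with median-of-ratios factors, and 5220 and 5214 with quantile normalization. Without both high spleen libraries they were 6532 and 4005. In Ly6G 3 were higher and 1 lower. Median-of-ratios factors gave 1 higher and 4 lower, and scaling to pan-leukocyte genes 10 higher and 0 lower. Over all genes tested, median-of-ratios factors gave 5259 higher and 5030 lower in Ly6G, beside 7010 and 3357 on the deposited scale. In spleen 1 was higher, but 2 with an equal sum and 0 with no expression filter, median-of-ratios factors (2 lower), quantile normalization, pan-leukocyte genes, 2 groups in the fit or without both libraries. Over all genes tested in spleen, 3002 were higher and 1169 lower, but 5380 and 567 with an equal sum. Median-of-ratios factors gave 1775 and 2367, quantile normalization 1931 and 1713, pan-leukocyte genes 180 and 126, and leaving out both libraries 2275 and 879. In tumor 0 were higher, but 9 scaled to pan-leukocyte genes, 2 with 2 groups in the fit and 1 (with 1 lower) without both libraries. Over all genes tested in tumor, 790 were higher and 1184 lower, or 1543 and 1514 without both libraries. In the difference of tissue effects 0 passed, but 1 higher with median-of-ratios factors or without both libraries, 2 higher with pan-leukocyte genes and 2 lower with an equal sum.

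Over all genes, a filter of 5 FPKM, which tests fewer genes, left 6694 of 10443 calls in Ly6C and 6648 of 10367 in Ly6G. In spleen, calls went from 4171 to 306 scaled to pan-leukocyte genes and 2586 with 2 groups in the fit. In tumor they went from 1974 to 9872 with pan-leukocyte genes, 260 without the tumor libraries of highest mitochondrial share and 3057 without both high spleen libraries. For the difference of tissue effects they went from 2972 to 4792 with an equal sum and 1417 without those tumor libraries.

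Leaving out 1 library at a time gave 2 to 4 higher and 0 to 1 lower genes in Ly6C, 2 to 4 and 1 in Ly6G, 0 to 2 and 0 to 1 in spleen, 0 in tumor, and 0 to 1 in each direction for the difference of tissue effects. All-gene calls ranged over 9930 to 10512, 9742 to 10553, 3317 to 4150, 746 to 2618 and 2095 to 3124 in the same order. Tumor minus spleen log2 ratios ranged from -0.31 to -0.22 (Psmb8 to Psmb5), -1.22 to -1.04 (Psmb9 to Psmb6), -0.81 to -0.55 (Psmb10 to Psmb7), 0.86 to 1.02 (H2-K1 to B2m) and 0.37 to 0.49 (H2-D1 to B2m). Between labels Psmb9 to Psmb6 ranged from -0.43 to -0.25, and it was -0.33 with a pseudocount of 5 (exact permutation test, adjusted p = 0.02). Without both high spleen libraries, Psmb8 to Psmb5 was -0.20 and Psmb10 to Psmb7 -0.41.

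Whether replicate numbers pair the samples could not be decided, since deviations from means of so few libraries cannot exclude a shared animal. Same-numbered deviations correlated at -0.36 to 0.28, above 0.1 in 5 of 18 pairs, and 5 of 12 libraries correlated best with their own number. With the replicate block, 0 of the 10 genes passed in spleen, and the ratios kept their sizes of -0.27, -1.13, -0.70, 0.92 and 0.43 with an exact adjusted p of 0.0625 each. Each ratio then stood at the smallest p that the few labelings within replicate numbers allow, so this setting could not call them. Fragment counts were not used, so depth sets no stated limit here.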
